A study of Mus musculus with 2 samples.

Results

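Mammary cells carry the MHC class I pathway, and 9 of its genes were followed here out of 27179 features counted: the heavy chain genes H2-K1 and H2-D1, the light chain gene B2m, the peptide transporter genes Tap1 and Tap2, the loading factor gene Tapbp, the immunoproteasome genes Psmb8 and Psmb9, and the regulator gene Nlrc5. They were chosen by symbol from the feature table, and each of the 9 has 1 row there. The study compared adult female mice lacking Ehf (strain label EhfKO), a transcription factor of the ETS family found in epithelia, with wild type females, all 18.5 days pregnant. Glands of 2 females of a genotype were pooled, lymph nodes were taken out, and live cells negative for Ter119, CD31 and CD45 were sorted and captured with the 10x Chromium 3' V3 chemistry, giving 1 library per genotype. The sources used here do not give the deleted part of Ehf or the strain background of the mice. With 1 library per genotype there is no replicate and no test, so every difference below compares the Ehf knockout library with the wild type library, and genotype, pool of females and library cannot be told apart.

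Class I molecules show peptides from inside a cell to CD8 T cells. Proteasomes cut proteins into peptides, and the interferon-inducible subunits replace constitutive ones in the immunoproteasome. The TAP transporter moves peptides into the endoplasmic reticulum, where tapasin helps load them onto a heavy chain paired with beta-2-microglobulin. NLRC5 is the transactivator of the class I genes, and acts at their promoters through a module whose parts include a CREB/ATF-type box and a CCAAT-type box.

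B2m and both heavy chain genes lead the results below, so their RefSeq promoters (GRCm38.p6, 250 bases before to 50 bases after the annotated start, on the strand of the gene) are shown first. The windows are H2-K1 at chr17:34000298-34000597 on the minus strand, H2-D1 at chr17:35262844-35263143 on the plus strand and B2m at chr2:122147437-122147736 on the plus strand. H2-K1 has 2 listed windows and the first is shown, so distances to its start depend on that choice. Capitals mark the words TGACG, the core of CREB/ATF-type elements, and CCAAT, the core of NF-Y-type elements, on both strands, so that they also read CGTCA and ATTGG.

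H2-K1: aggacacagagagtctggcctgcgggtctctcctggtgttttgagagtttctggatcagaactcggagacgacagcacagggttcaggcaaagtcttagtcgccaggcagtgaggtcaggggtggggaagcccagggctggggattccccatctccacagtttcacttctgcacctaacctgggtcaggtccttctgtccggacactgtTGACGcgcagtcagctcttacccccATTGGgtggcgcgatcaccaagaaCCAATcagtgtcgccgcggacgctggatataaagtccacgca

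H2-D1: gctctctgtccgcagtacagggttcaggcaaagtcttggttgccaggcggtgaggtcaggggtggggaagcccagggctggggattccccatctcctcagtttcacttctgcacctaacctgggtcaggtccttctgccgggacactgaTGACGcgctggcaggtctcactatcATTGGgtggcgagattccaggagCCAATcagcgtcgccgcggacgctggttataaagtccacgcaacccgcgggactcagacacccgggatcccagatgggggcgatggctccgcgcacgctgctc

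B2m: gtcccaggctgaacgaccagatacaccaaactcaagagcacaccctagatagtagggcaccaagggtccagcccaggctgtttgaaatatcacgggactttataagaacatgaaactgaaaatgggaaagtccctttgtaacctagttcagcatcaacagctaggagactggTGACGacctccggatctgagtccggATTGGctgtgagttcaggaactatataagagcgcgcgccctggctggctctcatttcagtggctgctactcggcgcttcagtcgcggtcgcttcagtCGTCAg

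TGACG starts 41 bases before the start in H2-K1, 101 in H2-D1 and 78 in B2m, and ATTGG follows it by 25 bases in each of these promoters. TGACG was in 21.0% and CCAAT in 37.9% of 27025 mouse promoters of this length, counting 1 window per gene and both strands, and the pair at that distance, noticed in these 3 promoters and then counted, was in 26 of them (0.0962%). The longest run of bases that the H2-K1 and H2-D1 windows share is 47 bases long. The ETS-type word CGGAAG was in 0 of the 7 member promoters that the table holds, and in 4639 of all promoters (17.2%). The shorter ETS core GGAA was in each of these 7 promoters, and in 95.9% of all promoters. A match is a description of letters and not a binding site, and no match says only that these letters are not in the window. Tap2 and Nlrc5 had no entry in the promoter table. The windows of Tap1 (chr17:34187306-34187605, plus strand) and Psmb9 (chr17:34187281-34187580, minus strand) lie head to head and share 275 of their 300 bases.

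On chromosome 17, in the MHC, lie 7 of the members, B2m is on chromosome 2 and Nlrc5 is on chromosome 8. The B2m gene (2:122147687-122153082) lies on the same chromosome as Ehf (2:103263431-103303275). The mouse class I heavy chain genes are near-identical copies of each other and vary between strains, and the sources used here do not say how reads were assigned between copies. Values of H2-K1 and H2-D1 are therefore uncertain as to which copy they count, and they are set beside B2m, Tap and Psmb genes.

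After filtering, 6561 Ehf knockout and 9089 wild type cells were kept, with medians of 3900 and 2481 unique molecular identifiers (UMIs, each a counted RNA molecule) per cell. Of the barcodes, 15 were shared by both libraries. Luminal secretory cells, made of alveolar-like and luminal progenitor-like clusters, numbered 824 in the Ehf knockout library and 2561 in the wild type library. Basal-like cells numbered 5525 and 6226, and hormone-sensing-like cells 151 and 125, Ehf knockout first. Milk protein genes took 10.3% of luminal secretory UMIs in the Ehf knockout library and 38.9% in the wild type library. The alveolar-like cluster held 4.37% of the Ehf knockout luminal secretory cells against 59.7% of the wild type ones, and the luminal progenitor-like cluster 5 held 62.5% against 26.9%. Cycling cells made up 43.7% and 17.7% of the class. Ehf itself had 89.9 CPM in Ehf knockout luminal secretory cells against 187.5 CPM in wild type ones, and since the deleted part is not given, a 3' tag may check nothing.

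A level below is in CPM, UMIs scaled to a common total for depth, over the UMIs of a class outside 12 milk protein genes, with the UMIs of all its cells in a library summed. A log2 ratio is Ehf knockout over wild type, less the median ratio of all genes with at least 50 UMIs, which was 0.31 in luminal secretory cells, -0.03 in basal cells and -0.04 in hormone-sensing cells. A gene is called higher or lower at a ratio of at least 1.5-fold, a rule of size. The 95% intervals are exact and cover counting error only. Levels of different genes are not ranked against each other, as 3' capture may differ between genes.

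In luminal secretory cells, relative to the median gene, the chains of the class I molecule had lower values in the Ehf knockout library and Tap2 and Psmb9 had higher ones, while as CPM over all UMIs H2-K1 and H2-D1 turn to the higher side. Of the 9 members, 2 were called higher (Tap2 and Psmb9) and 2 lower (H2-K1 and B2m), where 15.4% of all 11383 genes counted were higher and 18.1% lower. With 9 genes, the share called is near that background. Their median log2 ratio was -0.28, beside 0 for all genes by construction. As CPM over all UMIs, milk genes included, the counts were 5 higher and 0 lower, so neither lower call stood on that scale. No median is removed there, and milk genes took 10.3% of Ehf knockout and 38.9% of wild type UMIs of the class. The share of all genes called on that scale is not given, so these counts have no background beside them.

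B2m, the light chain shared by all classical class I molecules, was counted 5380 times in Ehf knockout luminal secretory cells and 13847 times in wild type ones, or 449 against 776 CPM. The log2 ratio of -1.10 (interval -1.14 to -1.05) was the lowest of the members in this class. By the median cell, B2m stood at 350.1 CPM in the Ehf knockout library and 626 CPM in the wild type library, the same direction as in the sums.

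H2-K1, a classical heavy chain gene, had 723 CPM in Ehf knockout and 999.9 CPM in wild type luminal secretory cells, a log2 ratio of -0.78 (-0.81 to -0.74). H2-D1, the other classical heavy chain gene, had 243 against 274 CPM, and its log2 ratio of -0.49 (-0.55 to -0.42) stayed within 1.5-fold. H2-K1 thus gave 74.9% of the UMIs of both heavy chain genes in the Ehf knockout library and 78.5% in the wild type library. The direction for both heavy chain genes turns with scaling. Over all UMIs, with no median removed, H2-D1 stands at 0.38 and H2-K1 at 0.085. As CPM over all UMIs, milk genes included, H2-K1 had 649 CPM in the Ehf knockout library and 611 CPM in the wild type library. B2m kept a negative ratio on that scale, -0.24, within 1.5-fold.

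Among the transporter genes, Tap2 had 61.5 CPM in Ehf knockout and 26.7 CPM in wild type luminal secretory cells, a log2 ratio of 0.89 (0.73 to 1.06). Tap1, which codes for its partner chain, had 18.4 against 12.2 CPM and a ratio of 0.29 (0.02 to 0.57). Tap2 therefore made up 76.9% (74.1 to 79.6%) of the Tap UMIs in the Ehf knockout library and 68.7% (65.1 to 72.2%) in the wild type library, a share that no scaling between libraries can move. Tapbp, the gene of tapasin, had 82.4 against 86.5 CPM and a ratio of -0.38 (-0.49 to -0.26).

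The immunoproteasome genes went the way of Tap2 in the whole class. Psmb9 had 24.2 CPM in the Ehf knockout library and 12.3 CPM in the wild type library, a log2 ratio of 0.67 (0.41 to 0.93). Psmb8 had 98.3 against 66.3 CPM, and its ratio of 0.26 (0.14 to 0.38) was within 1.5-fold. Set against the constitutive subunits they replace, Psmb8 made up 34.0% of Psmb8 plus Psmb5 UMIs in the Ehf knockout library and 27.3% in the wild type library, and Psmb9 made up 9.49% and 6.76% of Psmb9 plus Psmb6. Nlrc5 was at the edge of detection, with 28 and 41 UMIs, or 2.34 and 2.30 CPM, and an interval of the log2 ratio from -1.03 to 0.45.

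**Figure D1:**
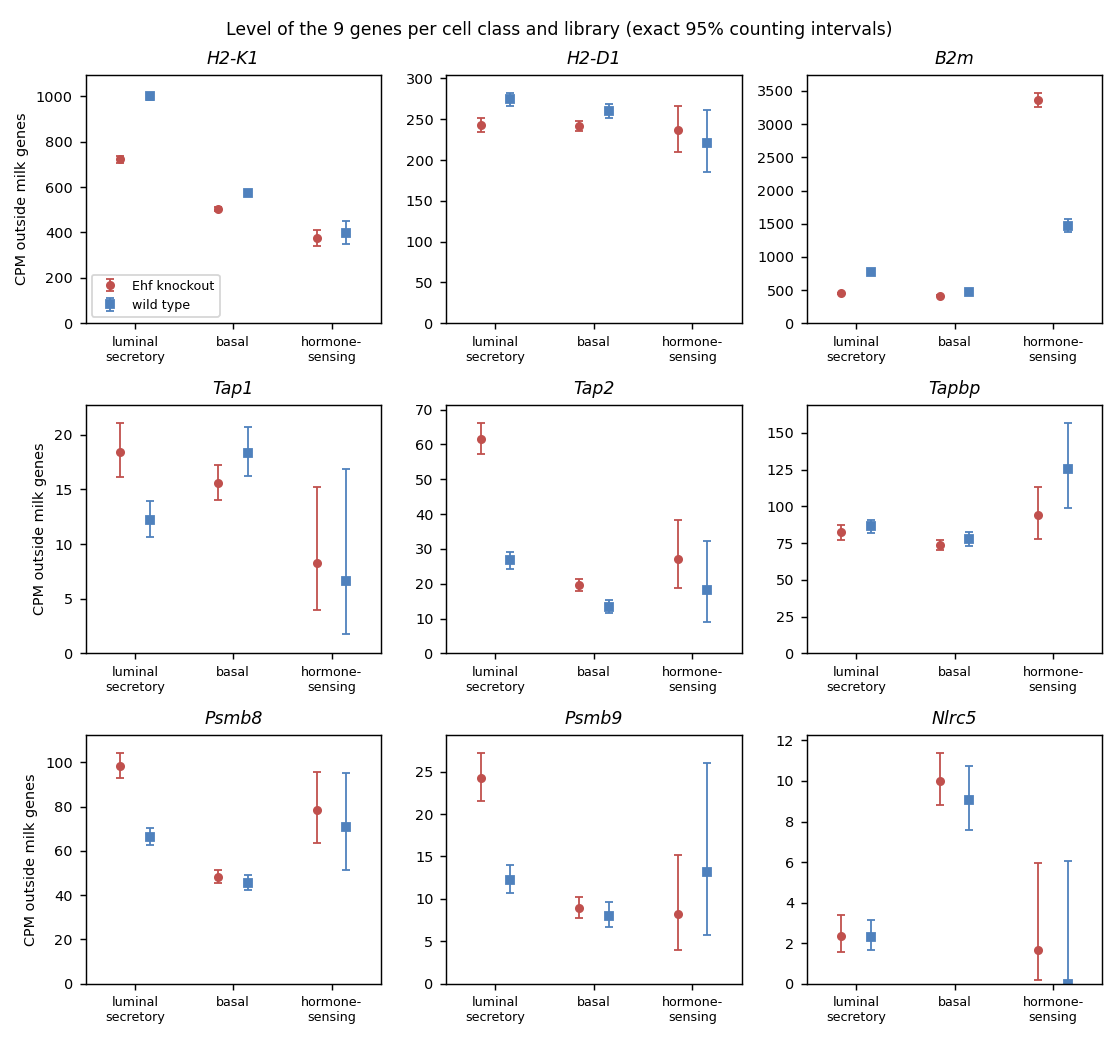
Level of each of the 9 genes (CPM outside milk protein genes, linear axes from 0) in luminal secretory, basal and hormone-sensing cells, with Ehf knockout left of wild type. Points are 1 library each and error bars are exact 95% Poisson intervals of counting error. B2m is lower in Ehf knockout luminal secretory cells (449 against 776 CPM) and higher in Ehf knockout hormone-sensing cells (3365 against 1464 CPM).

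Since the 2 libraries hold different mixes of luminal secretory clusters, the members were also read inside single clusters, an alternative added after the data were seen. Within cluster 5, led by Kit, Ltf and Ubd, log2 ratios were -1.28 for B2m, -0.86 for H2-K1, -0.46 for H2-D1 and 0.68 for Tap2. Within the cycling cluster 7 they were -0.95, -0.64, -0.41 and 1.14, so B2m and H2-K1 were lower and Tap2 higher in both clusters. The alveolar-like cluster held 36 Ehf knockout cells, under the minimum of 50, and was not read. Psmb9 changed direction between them, at -0.38 in cluster 5 and 0.61 in cluster 7, and Psmb8 stood at -0.18 and 0.24.

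Luminal secretory cells were then binned by casein share, the share of a cell's UMIs from 5 casein genes. This sets cells within the same range of casein share side by side. The bins held 314, 148, 162, 141 and 59 Ehf knockout cells at under 2, 2 to 5, 5 to 10, 10 to 20 and over 20%, against 68, 48, 87, 368 and 1990 wild type cells. The shift removed was 0.03 to 0.11 in every bin, far from that of the whole class. Depth and cycling still differed, with median UMIs per cell of 7026.5 to 15151 in the Ehf knockout bins against 3060.5 to 10005 in the wild type bins, and cycling cells at 27.1 to 59.5% against 6.25 to 26.4%. Milk protein share also differed in the upper bins. It was 33.2% in Ehf knockout and 42.1% in wild type cells over 20%, and 16.5% and 21.2% at 10 to 20%. Casein UMIs also differed between the libraries outside this class. They made up 0.142% of Ehf knockout and 2.32% of wild type hormone-sensing UMIs, and basal cells had the same order. The wild type value lies above the 2% edge of the lowest bin. The low bins may therefore not hold like cells in both libraries. The part of depth, cycling, milk share and this casein difference in the ratios below was not tested.

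The members parted from the wild type library in the middle of this range. Of the 9, 0 were called higher and 0 lower under 2%, where 17.1% of all genes were higher and 17.1% lower. At 2 to 5%, 0 were higher and 5 lower (all genes 19.7% and 18.6%). At 5 to 10%, 1 was higher and 6 were lower (13.2% and 13.0%). At 10 to 20%, 0 were higher and 3 lower (9.60% and 11.0%), and over 20%, 3 were higher and 1 was lower (14.0% and 15.8%). At 5 to 10%, 7 of 9 were past the fold and the other two, Tap1 and Nlrc5, had under 50 UMIs, while under 2% the members were below the share of all genes.

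B2m was at 456, 481, 427, 420.3 and 480.0 CPM across the 5 Ehf knockout bins, low to high casein share. In the wild type bins it was at 543, 1076, 1214, 985 and 732 CPM. Ehf knockout levels thus stayed in a narrow band, while wild type levels were highest at 5 to 10% and lower on both sides. The log2 ratios were -0.33, -1.25, -1.54, -1.27 and -0.72, with a mean of -1.02 that ranged from -0.89 to -1.20 over every alternative run on the bins. The interval at 5 to 10% was -1.68 to -1.39.

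H2-K1 repeated the shape. It had 666, 775, 738, 713 and 744 CPM in the Ehf knockout bins, and 691, 1309.8, 1435, 1257 and 951 CPM in the wild type bins. Its log2 ratios were -0.13, -0.85, -0.99, -0.86 and -0.46. H2-D1 had 235 to 268 CPM in the Ehf knockout bins against 247, 408, 453, 343 and 257 CPM in the wild type bins, with log2 ratios of -0.09, -0.88, -0.97, -0.51 and -0.05. Both heavy chain genes therefore had near equal values in both libraries under 2%, and lower Ehf knockout values between 2 and 10%. Their balance was alike at 5 to 10%, where H2-K1 held 75.9% of the UMIs of both in the Ehf knockout library and 76.0% in the wild type library, and it was apart at 10 to 20%, at 74.2% and 78.5%, and over 20%, at 73.5% and 78.7%.

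**Figure D2:**
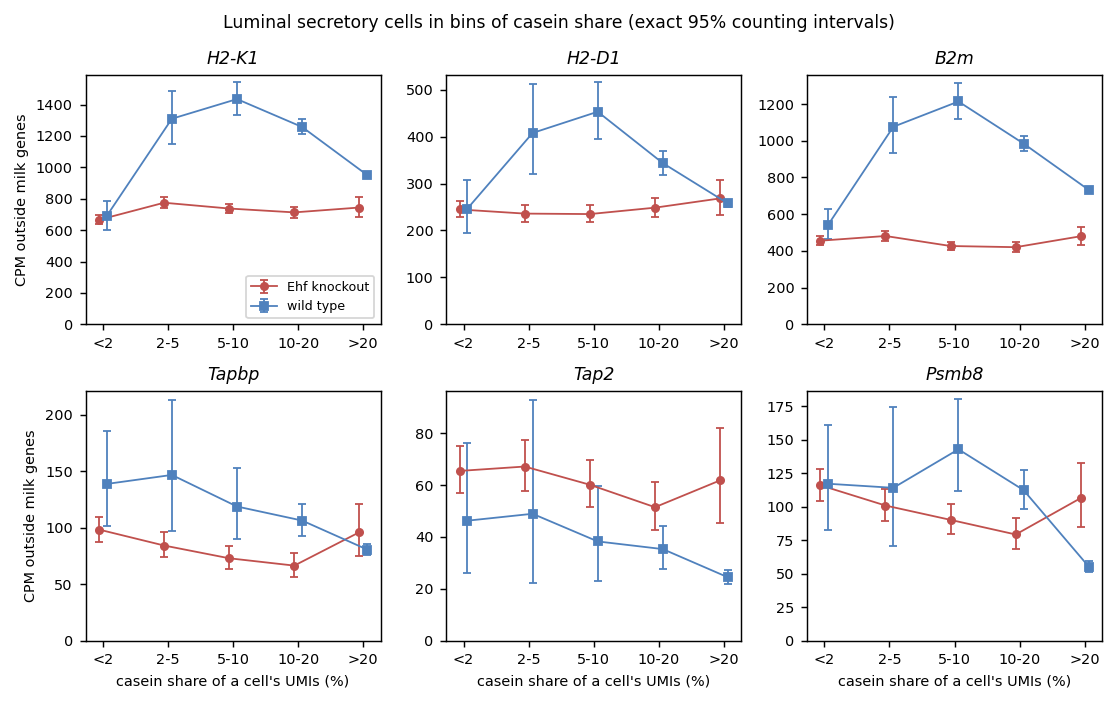
Level of H2-K1, H2-D1, B2m, Tapbp, Tap2 and Psmb8 (CPM outside milk protein genes, linear axes from 0) against casein share bins of luminal secretory cells. Points are given for each library with exact 95% Poisson intervals of counting error. Tap1, Psmb9 and Nlrc5 are not drawn. Wild type B2m reaches 1214 CPM at 5 to 10% casein share while Ehf knockout B2m stays between 420.3 and 481 CPM.

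Tapbp had 98.3, 84.2, 72.9, 66.4 and 96.0 CPM in the Ehf knockout bins against 139, 147, 119, 106 and 80.6 CPM in the wild type bins. Its log2 ratio was between -0.58 and -0.89 in the lower 4 bins and 0.15 over 20%. Tap2 was the exception among the members, with 65.5, 67.1, 60.1, 51.5 and 61.8 CPM in the Ehf knockout bins against 46.3, 48.9, 38.2, 35.3 and 24.4 CPM in the wild type bins. Its log2 ratio was above 0 in 5 of 5 bins, at 0.42, 0.37, 0.63, 0.50 and 1.23, although the counting interval included 0 in the lowest 3. Tap1 rested on few UMIs, with 19.2 against 48.9 CPM at 2 to 5% from 53 and 9 UMIs, a log2 ratio of -1.44 (-2.47 to -0.23), and it was under the minimum of 50 UMIs at 5 to 10%.

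Psmb8 and Psmb9 turned over along the casein share. Psmb8 had 116, 101, 90.2, 79.3 and 107 CPM in the Ehf knockout bins against 117, 114, 143, 112 and 55.3 CPM in the wild type bins. Its log2 ratio was -0.69 (-1.07 to -0.29) at 5 to 10% and 0.84 (0.49 to 1.17) over 20%. Psmb9 had 26.6 against 48.3 CPM at 5 to 10%, from 77 and 24 UMIs, and 21.0 against 9.51 CPM over 20%, from 16 and 140 UMIs. Its ratios were -0.89 (-1.57 to -0.16) and 1.04 (0.19 to 1.79). The bin over 20% holds most wild type cells and the fewest Ehf knockout cells, and the means over bins were -0.15 for Psmb8 and 0.00 for Psmb9.

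The gene pairs, which need no scaling, gave the same picture. Psmb8 made up 32.0% of Psmb8 plus Psmb5 UMIs in the Ehf knockout library and 45.8% in the wild type library at 5 to 10%, but 32.9% and 23.7% over 20%. Psmb9 made up 9.53% of Psmb9 plus Psmb6 in the Ehf knockout library and 19.2% in the wild type library at 5 to 10%. Heavy chain UMIs of H2-K1 and H2-D1 per B2m UMI were 2.00 to 2.29 in the Ehf knockout bins and 1.56 to 1.73 in the wild type bins. B2m was thus lower relative to the heavy chains in the Ehf knockout library in 5 of 5 bins.

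**Figure D3:**
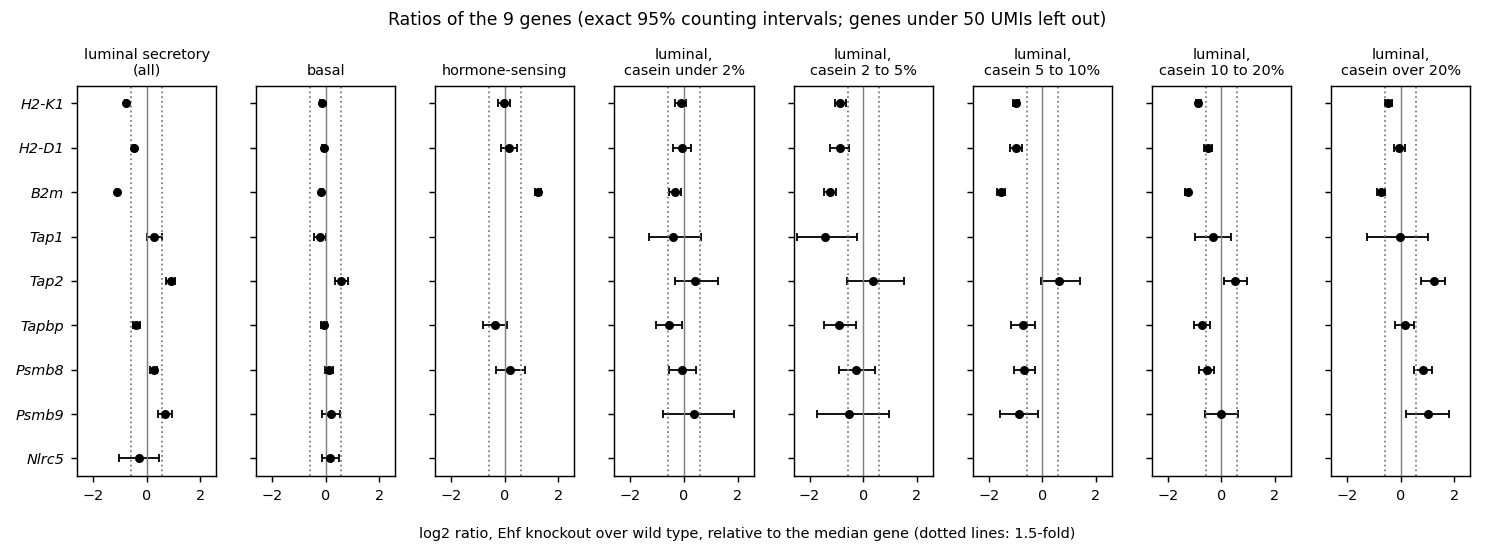
Log2 ratio of each of the 9 genes, Ehf knockout over wild type, relative to the median of all genes, in 3 cell classes and in casein share bins, with exact 95% intervals of counting error and lines at 1.5-fold. Genes under 50 UMIs in a group are left out. B2m is at -1.54 in the 5 to 10% bin and 1.24 in hormone-sensing cells, and Tap2 is above 0 in every bin.

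The levels were also compared along the casein share within a library. At 5 to 10% over under 2%, the Ehf knockout library had 0 members higher and 1 lower, Tap1 at -1.03 (all genes 9.67% higher and 10.3% lower). The wild type library had 3 higher, H2-K1 at 0.99, H2-D1 at 0.81 and B2m at 1.09 on the log2 scale, and 0 lower (14.4% and 13.6%). The 3 wild type genes called higher were the chains of the class I molecule, among 5 members with at least 50 UMIs in that contrast. Tap1, Tap2, Psmb9 and Nlrc5 were under that minimum, against 1 member in the Ehf knockout library, and the difference between libraries was not tested. At over 20% over 5 to 10%, the Ehf knockout library had 0 higher and 0 lower (13.0% and 13.8%), and the wild type library had 0 higher and 3 lower, Tap1 at -0.86, Psmb8 at -1.06 and Psmb9 at -2.03 (24.5% and 20.9%). Between the end bins, over 20% over under 2%, the Ehf knockout library had 0 higher and 1 lower, Tap1 at -1.10 (21.7% and 20.5%). The wild type library had 2 higher, H2-K1 at 0.75 and B2m at 0.72, and 4 lower, namely Tap1, Tap2, Psmb8 and Psmb9 at -1.50 to -0.64 (29.1% and 27.1%). The 2 wild type members called higher turned to -0.29 and -0.32 as CPM over all UMIs, milk genes included. No median is removed on that scale, and the share of all genes called on it is not given. Milk genes took 42.1% of wild type UMIs in the bin over 20% and 2.83% in the bin under 2%.

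The clusters behind a bin also differed. Cluster 5 held 56.8% of Ehf knockout and 74.7% of wild type cells at 5 to 10%, and over 20% the alveolar-like cluster held 47.5% and 70.8%. Myeloid markers, a set of 8 genes, summed to 7.01 CPM in Ehf knockout and 7.40 CPM in wild type luminal secretory cells, with 1 marker, Adgre1, at 0 in each. In myeloid cells the same sum was 15441 and 30879 CPM. Endothelial markers, also 8 genes, summed to 6.59 CPM in Ehf knockout and 22.1 CPM in wild type luminal secretory cells with 0 genes at 0, and to 2.63 and 24.3 CPM over 20% casein share with 6 and 0 genes at 0. In the 5 to 10% bin, where B2m and H2-K1 differed most, the sums were 6.56 and 14.1 CPM for myeloid markers (1 and 7 of 8 at 0), 8.64 and 20.1 CPM for endothelial markers (2 and 4 of 8 at 0) and 11.1 and 42.3 CPM for fibroblast markers (3 and 1 of 7 at 0). These sums were lower in the Ehf knockout library, as B2m and H2-K1 were, and their part in the ratios was not tested.

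Hormone-sensing cells, the estrogen and progesterone receptor bearing luminal cells, gave the opposite result for B2m. It was counted 4080 times in 151 Ehf knockout cells and 889 times in 125 wild type cells, or 3365 against 1464 CPM, a log2 ratio of 1.24 (1.14 to 1.35). B2m was the only member called there among the 5 with at least 50 UMIs, and 9.06% of 4460 genes were higher and 8.43% lower. Its ratio was 1.18 to 1.37 over all alternatives run.

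The higher B2m was seen across Ehf knockout cells. The median cell had 3085 CPM (quartiles 1996 and 4598) in the Ehf knockout library and 824 CPM (456 and 1672) in the wild type library. The lowest Ehf knockout cell had 274 CPM. The highest cells were alike, at 9107 and 9184 CPM. The 10% of cells with the highest counts held 23.2% of B2m UMIs in the Ehf knockout library and 41.3% in the wild type library, so the wild type signal was the more uneven of the pair. Depth differed, at a median of 7784 UMIs per Ehf knockout cell and 4403 per wild type cell. At full depth, a B2m UMI was present in 151 of 151 Ehf knockout cells and in 116 of 125 wild type cells (92.8%). At 2000 UMIs per cell, the share expected over all draws was 97.7% in the Ehf knockout library (149 cells) and 78.6% in the wild type library (122 cells), with 2 and 3 shallower cells left out.

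**Figure D4:**
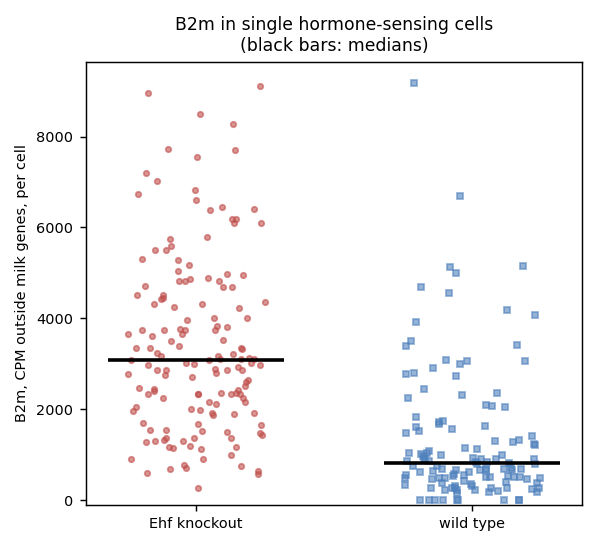
B2m level per hormone-sensing cell (CPM outside milk protein genes, linear axis from 0), with Ehf knockout cells left of wild type cells, each point 1 cell and the line the median. The Ehf knockout median is 3085 CPM and the wild type median 824 CPM, and cells are not replicates.

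The partners of B2m did not follow it in these cells. H2-K1 had 375 CPM in the Ehf knockout library and 399 CPM in the wild type library, and H2-D1 had 237 and 221 CPM, with log2 ratios of -0.05 and 0.14. Heavy chain UMIs per B2m UMI were 0.182 in Ehf knockout and 0.423 in wild type hormone-sensing cells, against 2.15 and 1.64 in luminal secretory cells. Psmb8 stood at 78.3 and 70.8 CPM and Tapbp at 94.0 and 125 CPM, both within 1.5-fold. Tap1 (10 and 4 UMIs), Tap2 (33 and 11), Psmb9 (10 and 8) and Nlrc5 (2 and 0) were too sparse for a ratio. The wild type 0 for Nlrc5 was read against a floor set at 3 UMIs, or 4.94 CPM, above the Ehf knockout level of 1.65 CPM.

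Cells of other types in the gate carry high B2m, so their markers were read in the hormone-sensing cells. Lymphoid markers were at 0 for 8 of 8 genes in both libraries. Myeloid markers summed to 74.2 CPM in the Ehf knockout library and 62.6 CPM in the wild type library, with 2 and 7 of the 8 genes at 0, and endothelial markers summed to 14.0 and 4.94 CPM. Hormone-sensing markers summed to 8980 and 5568 CPM, general luminal markers to 8623 and 5802 CPM, and basal markers to 741 and 1318 CPM. Casein genes took 0.142% of UMIs in the Ehf knockout library and 2.32% in the wild type library. With the luminal secretory profile subtracted in proportion to the casein share, the B2m ratio was 1.22, and the part of the other marker levels was not tested.

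In basal cells, the contractile layer and the largest class, 0 of 9 members were called higher and 0 lower, where 6.14% of 12526 genes were higher and 6.59% lower. B2m had 412 CPM in the Ehf knockout library and 471 CPM in the wild type library, H2-K1 505 and 575 CPM, and H2-D1 242 and 260.4 CPM, with log2 ratios of -0.16, -0.16 and -0.08. Tap2 came nearest to a call, at 19.6 against 13.4 CPM, a log2 ratio of 0.58 (0.34 to 0.83) just inside 1.5-fold. Tap2 made up 55.8% (52.4 to 59.2%) of Tap UMIs in the Ehf knockout library and 42.2% (37.7 to 46.9%) in the wild type library, the same order as in luminal secretory cells. Nlrc5 was best measured here, with 10.0 against 9.06 CPM from 243 and 132 UMIs and a ratio of 0.18. Tap1, Tapbp, Psmb8 and Psmb9 had ratios of -0.21 to 0.19.

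Across classes within a library, luminal secretory cells had 3 members called higher than basal cells in the Ehf knockout library (Tap2, Psmb8 and Psmb9) and 5 in the wild type library (those and H2-K1 and B2m), with Nlrc5 lower in each. Of all genes, 25.4% were higher and 29.9% lower in the Ehf knockout library, and 30.2% and 31.8% in the wild type library. H2-K1 and B2m stood 1.00 and 0.93 above basal cells on the log2 scale in the wild type library. Hormone-sensing over basal cells gave a B2m log2 ratio of 3.05 in the Ehf knockout library and 1.59 in the wild type library, where 27.5% of genes were higher and 30.5% lower in the Ehf knockout library and 27.2% and 30.8% in the wild type library. Over luminal secretory cells, hormone-sensing B2m stood at 3.00 and 0.72 and H2-K1 at -0.85 and -1.53, Ehf knockout first, with 25.3% of genes higher and 26.1% lower in the Ehf knockout library and 27.7% and 27.3% in the wild type library. By level of B2m, the order in the Ehf knockout library was hormone-sensing, myeloid, endothelial, fibroblast, pericyte, luminal secretory and basal, and in the wild type library myeloid, fibroblast, endothelial, hormone-sensing, luminal secretory, basal and pericyte. Counting intervals of neighbours in these orders overlapped among myeloid, endothelial and fibroblast cells, and between pericytes and the epithelial class next to them.

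The few non-epithelial cells past the sort gave a further reading of the same libraries. B2m had 2052 CPM in 24 Ehf knockout and 2015 CPM in 65 wild type endothelial cells, 1729 and 2059.7 CPM in 23 and 52 fibroblasts, 2129.7 and 2360.5 CPM in 8 and 33 myeloid cells, and 456 and 426 CPM in 6 and 27 pericytes. H2-K1 had 1272 and 1206 CPM in endothelial cells and 989.8 and 1195 CPM in fibroblasts. Neither gene was 1.5-fold apart in endothelial cells, fibroblasts or myeloid cells.

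Other genes of the pathway, from lists of its parts, were read the same way. Of 10 other class I heavy chain and related genes counted in luminal secretory cells, 1 was higher and 5 were lower (median log2 ratio -0.58, against 15.4% and 18.1% of all genes). They include Mr1, which presents vitamin metabolites, at 1.89, Fcgrt, the neonatal Fc receptor heavy chain that also pairs with B2m, at -2.50, the non-classical H2-Q4 at -1.61, and the lipid presenter Cd1d1 at -1.34. H2-Q7, a non-classical heavy chain gene of the Qa-2 group, was lower in 5 of 5 casein bins, with 28.7 against 117 CPM and a log2 ratio of -2.05 at 5 to 10%.

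Peptide loading and trimming genes went both ways in luminal secretory cells, with 3 higher and 2 lower of 11 (median 0.06), near the 15.4% and 18.1% of all genes. The chaperones Hspa5 and Pdia3 stood at 0.79 and 0.59 and the insulin-degrading enzyme gene Ide at 0.64, while the aminopeptidase gene Lnpep stood at -1.15 and the lysosomal protease gene Ctsl at -0.84. Proteasome activators with Psmb10 (0 called of 4, median 0.15), constitutive catalytic subunits (0 of 3, -0.19) and core subunits (0 of 11, 0.01) were within 1.5-fold. At 5 to 10% casein share, 3 of the 4 activator and Psmb10 genes were lower, Psme1 at -0.99, Psmb10 at -0.91 and Psme2 at -0.73, as Psmb8 and Psmb9 were, where 13.0% of all genes were lower. The loading and trimming genes went the other way there, with 4 higher and 0 lower of 8 (median 0.68, all genes 13.2% and 13.0%). They had 5 higher and 2 lower of 8 at 2 to 5% (19.7% and 18.6%). At 10 to 20% they had 4 higher and 1 lower of 9 (9.60% and 11.0%). Under 2% they had 2 higher and 1 lower of 8, and over 20% 1 and 1 of 10.

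Of 23 class I regulators counted in luminal secretory cells, 2 were higher, the NF-kappaB subunits Rela at 0.77 and Relb at 0.76, and 3 were lower, Stat2 at -1.06, Irf1 at -0.69 and Irf9 at -0.59, which act in interferon signalling (median 0.10). These counts are near or under the 15.4% and 18.1% of all genes. In hormone-sensing cells 3 of 12 were higher and 0 lower (all genes 9.06% and 8.43%), Rela at 1.53, Relb at 0.88 and Irf1 at 0.66. In basal cells Rela and Relb, at 0.79 and 0.70, were the 2 called higher of 23 (6.14% of all genes), and Stat2 stood at -0.63. Rela and Relb were thus called higher in all 3 classes, where B2m was lower in luminal secretory cells, higher in hormone-sensing cells and within 1.5-fold in basal cells.

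Among interferon receptors and their kinases, Ifngr1 was the only gene called of 7 in luminal secretory cells, at -0.71. In hormone-sensing cells Jak2 at 1.09 and Ifngr2 at 1.01 were called higher of 4. Interferon-stimulated genes had 1 higher and 3 lower of 20 in luminal secretory cells (median -0.27; all genes 15.4% and 18.1%), 0 higher and 6 lower of 21 in basal cells (-0.27; 6.14% and 6.59%), and 2 higher and 0 lower of 7 in hormone-sensing cells (9.06% and 8.43%), Bst2 at 0.96 and Ifitm3 at 0.70. Of 11 counted at 5 to 10% casein share, 9 were lower (median -0.78), where 13.0% of all genes were lower. Over 20%, 3 were higher and 1 was lower of 16, near the 14.0% and 15.8% of all genes. MHC class II genes, the peptide presenters of professional immune cells, had 0 higher and 2 lower of 4 in luminal secretory cells, 2 higher and 0 lower of 5 in basal cells, where Cd74 stood at 1.42 and the myeloid markers, whose list holds Cd74, summed to 54.9 CPM in the Ehf knockout library and 22.7 CPM in the wild type library with 0 of 8 at 0 in each, and 1 lower of 1 in hormone-sensing cells. The part of the myeloid markers in the basal values was not tested.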

How the data were processed

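The authors deposited 1 matrix of raw UMI counts per library with its genes and barcodes, whole numbers in the file values; the submitters' processing notes name GRCm38 (mm10) and Seurat 4.0.4, and the sources used here do not name the aligner or the read assignment. The members and the lists of pathway and marker genes were chosen with earlier results of these data known.

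The libraries held 7275 Ehf knockout and 11258 wild type barcodes with 40066795 and 48720938 UMIs, and 1314 features without a symbol took 1.74% and 1.36% of them. Filters asked for 500 genes and 1000 UMIs per cell and no more than 20% mitochondrial UMIs, which 6561 and 9211 cells passed. The doublet caller of scanpy 1.11.5 marked 122 wild type cells, which were left out, and 0 Ehf knockout cells, where it has not worked; 38 lay above the wild type threshold and were kept outside an alternative. Cells were scaled to 10000 UMIs, and both libraries were clustered together (2000 variable genes, 30 components, 20 neighbours, Leiden resolution 1 with leidenalg 0.10.2) without milk, mitochondrial and ribosomal genes, unnamed features, the members or the pathway lists, so the members did not shape the 17 clusters. Clusters were named from listed markers, endothelial, fibroblast, myeloid and pericyte cells at resolution 2.

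UMIs were summed per library and class. Ratios carry exact conditional, levels exact Poisson and shares exact Clopper-Pearson 95% intervals (scipy 1.17.1), from counts of molecules only. The log2 ratio of the printed levels equals the printed log2 ratio plus the median shift of its class or bin. Shares at 2000 UMIs per cell are exact hypergeometric expectations, as a single random draw moved them in small classes. The ratio step was checked on simulated counts with known folds. All 9 members are named, and of each further list up to 3 genes per direction by size among those past 1.5-fold with at least 50 UMIs, apart from a result that is not reported here. Members were matched to RefSeq promoters by gene ID, 7 of 9. Alternatives covered scaling, gene and cell filters, cell weights, clustering, doublets, cycling cells, subtraction of the luminal profile, bin measure and edges, and thinning. Single clusters, names at resolution 2, the expected shares at 2000 UMIs and the Tap2 and Psmb10 pairs were added after the data were seen.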

Additional observations from a re-analysis of the deposited data

Results flagged for a closer look

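B2m differed in opposite directions between 2 cell classes under the same contrast: its log2 ratio, Ehf knockout over wild type, was 1.24 in hormone-sensing cells and -1.1 in luminal secretory cells. Psmb8 stood at 0.84 over 20% casein share and -0.69 at 5 to 10%, and Psmb9 at 1.04 over 20% and -0.89 at 5 to 10%. These differences between classes and bins were not tested, as there is 1 library per genotype. Depth per cell was higher in the Ehf knockout library in each of these classes and bins, and its part in the differences was not tested.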

How the results depend on the processing

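No paired analysis was possible because there is 1 library per genotype. Of 527 member ratios under an alternative, 451 stayed within the counting interval of the reported value, 33 changed sign, and 2 of those were of a value past 1.5-fold, and of 172 counts of called members 137 stayed. Other kinds of value moved more often. Of 104 ratios along casein share 74 stayed and 3 reversed. Of 110 gene pair values 63 stayed and 47 moved, and of 108 shares of cells 20 stayed and 88 moved. The mean B2m ratio over bins (-0.89 to -1.20) and B2m in hormone-sensing cells (1.18 to 1.37) kept direction and call under every alternative run on them. As CPM over all UMIs, H2-K1 in luminal secretory cells stood at 0.085, the end-bin ratios in the wild type library at -0.29 for H2-K1 and -0.32 for B2m, and the counts were 5 higher and 0 lower in luminal secretory cells, 1 higher at 10 to 20%, 0 lower over 20%, 4 lower along casein share in the Ehf knockout library and 0 higher in the wild type library. No median is removed on that scale, and shares of all genes called under the alternatives are not given. Outside milk genes with no median shift, luminal secretory cells had 1 lower and the wild type trend 0 higher. Within cluster 5, Psmb9 stood at -0.38 and 1 member was higher. With bins of milk protein share, Tap1 along the wild type bins stood at 1.00, and lower counts were 2 under 2%, 2 at 2 to 5%, 6 at 10 to 20% and 0 in the Ehf knockout trend. With edges at 1, 4, 8 and 16%, the lowest bin had 1 higher and 2 lower and the bin in place of 10 to 20% had 5 lower. With equal weight per cell, 1 was lower under 2%, 0 higher at 5 to 10%, 1 higher at 10 to 20% and 1 higher in the Ehf knockout trend. Without cycling cells, 0 were higher at 5 to 10%, 1 at 10 to 20%, and the Ehf knockout trend had 2 higher and 0 lower. Thinned to 2000 UMIs, 1 was lower under 2%, 3 at 2 to 5%, and 0 higher and 3 lower at 5 to 10%, with 1 higher and 0 lower in the Ehf knockout trend and 0 higher and 2 lower in the wild type trend. Basal cells had 1 higher, against 0, with a median over genes of at least 10 UMIs, with the stricter cell filter and without cycling cells. The cause of these moves was not tested. Depth limits Nlrc5, Tap1 and Psmb9, which rest on few UMIs outside basal and luminal secretory cells.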

Other observations

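Across 20 cell groups (classes and casein bins of each library), with 10448 candidate genes, those whose log levels were most like the average of the 5 best measured members were Bst2 (r = 0.897), Ifngr1 (0.852), H2-Q7 (0.847), Trim30a (0.843) and Nmi (0.834). Among members, H2-K1 went with H2-D1 (0.825), H2-D1 with Tapbp (0.830) and Psmb8 with Psmb9 (0.739), whereas H2-K1 with B2m was at 0.365 and B2m with Tap2 at -0.402. The groups share 2 libraries and their depths, so these values describe the table only.

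The share of genes called in the stretch of chromosome 17 around the class I genes (3.34 Mb) was 32.0% in luminal secretory cells, 10.9% in basal cells and 20.9% in hormone-sensing cells, against 33.5%, 12.7% and 17.5% of all genes. Within 20 Mb on both sides of Ehf on chromosome 2, where B2m lies, it was 35.4%, 10.3% and 21.2%.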
